A study of Mus musculus with 34 samples.

Results

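NaJa-G is a mouse colorectal cancer cell line, and the question addressed here is how its transcripts moved between the first and the fifth day in encorafenib, a drug that blocks the mutant BRAF kinase. Of 34 RNA sequencing libraries, 6 belong to this comparison by line, treatment and day in their titles: 3 of NaJa-G cells harvested at day 1 and 3 harvested at day 5, both in 0.5 µM encorafenib. All 14107 genes of the count table were tested. The whole series has 12 groups, made of 3 cell lines (NaJa-G and its sister isolates NaJa-D and NaJa-F), encorafenib or the solvent DMSO, and day 1 or day 5. NaJa-G cells in DMSO gave 3 libraries at day 1 and 2 at day 5, and encorafenib-treated NaJa-D and NaJa-F cells gave 6 and 5 libraries over both days.

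All groups share the genotype VillinCreERT2::BrafV600E/+::Trp53R172H::APCdel on the strain C57BL/6N, so the controls carry the same driver alleles as the treated cells. The Cre recombinase is driven by the villin promoter of intestinal epithelium and was activated in a single colon organoid line before transplantation. Each NaJa line grew out of the peritoneal lavage of 1 recipient mouse and lost the host cells with passage, so differences between lines are differences between single isolates. Cells for both times were plated together, per the study's methods, and per the labels those for day 5 received new medium with drug or solvent on the way. Time in drug and time in culture therefore cannot be told apart within the encorafenib libraries. The change in DMSO over the same days is given beside many of the results, but not all. Where a list has no DMSO counts, its DMSO median is shown in the plot of list medians, except for the marker lists. Counts in encorafenib alone cannot separate the drug from time in culture. The labels do not say whether libraries of a group came from separate cultures, so p-values rest on a spread between libraries that may be technical. That spread was pooled over all 34 libraries in 12 groups and was not that of the 6 libraries alone.

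Total counts of the 6 libraries ran from 51186786 to 76886975, within 46007050 to 80121299 over all 34 libraries. Levels are given as CPM, the usual scaled share of a library's counts, with TMM factors, and genes were called at a limma adjusted p below 0.01. The spread between encorafenib replicates was 4.30 to 12.4 times what counting noise alone would give, on the variance scale. In DMSO at day 1, replicate 1 differed from the other 2 libraries by 46.7 and 48.3 times, and those from each other by 3.67 times. At day 5 the only 2 DMSO libraries, numbered 1 and 3, differed by 69.1 times, and which of them stands apart cannot be told. For most lists the counts that rest on DMSO are therefore also given for fits without the libraries numbered 1, singly or both. Without that of day 5 the group has 1 library, which is then assumed to vary like the other groups. Of the mouse colon epithelial markers looked for, 12 of 12 were in the table, and their summed level was 5376 to 5544 CPM at day 1 and 3377 to 3585 CPM at day 5. In DMSO this sum was 3495 to 4318 CPM at day 1 and 2847 and 3350 CPM at day 5. Of 14 macrophage and leukocyte markers 3 were in the table (Cd14, Cd68 and Csf1r). Limma called 0 of them (at an unadjusted p below 0.05, 1 lower and 0 higher), while edgeR, DESeq2 and limma-trend called Cd14 lower (limma log2 fold change -0.24, adjusted p = 0.0131; adjusted p = 0.0085, 0.0098 and 0.0076 with the other tools). Their sum was 24.6 to 26.6 CPM at day 1 and 22.95 to 25.6 CPM at day 5. Ptprc, the defining leukocyte marker, is not a gene of the table. In bulk RNA, fewer cells of a kind and less RNA per cell cannot be told apart.

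Mutant BRAF signals through the kinases MEK and ERK, and ERK drives a set of early genes, among them phosphatases and Sprouty proteins that damp the same cascade and ETS transcription factors that carry the signal to proliferation genes. In colorectal cancer cells a BRAF inhibitor lowers this output quickly, and loss of the feedback is known to free receptor kinases such as EGFR to signal again. The genes of DNA replication and mitosis, run by E2F factors, the DREAM complex and FOXM1, lie downstream of this signal.

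Between day 1 and day 5 of encorafenib 5779 of 14107 genes were called (41.0%), 2903 higher (20.6%) and 2876 lower (20.4%) at day 5. The change reached 2-fold or more in 792 of them, 494 higher and 298 lower, and the median absolute log2 change over all genes was 0.26. In DMSO over the same days 4804 genes were called (34.1%), 2432 higher and 2372 lower. For 4473 genes (31.7%) the change in encorafenib differed from the change in DMSO, and 1380 of these differed by at least 1 on the log2 scale. The difference was called higher for 2192 genes and lower for 2281. These counts over all genes, for encorafenib, DMSO and their difference, are the background for the counts of each gene list below. Scaled by library size alone, without TMM, 61.8% of the called genes were higher in encorafenib and 62.4% in DMSO, against 50.2% and 50.6% with TMM. In 5748 of the 5779 called genes the 3 libraries of one day did not overlap those of the other, and the same held for 9617 of all 14107 genes. The second principal component of the 11 NaJa-G libraries, with 8.53% of the variance of 500 genes, held the encorafenib libraries at -15.8 to -14.5 on day 1 and at 12.8 to 13.4 on day 5.

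The 12 highest called genes were picked among those that average at least 2 log2 CPM over the 6 libraries and do not overlap between the days, so genes of lower level are not among them. Fmod (ENSMUSG00000041559, chromosome 1, 134037254 to 134048277, GRCm38), a collagen-binding proteoglycan, had 2.68, 2.56 and 2.49 CPM at day 1 and 19.2, 20.3 and 18.6 CPM at day 5 (log2 fold change 2.90 ± 0.16 SE, limma adjusted p = 1.75e-14). Its relative Prelp had 3.69, 3.36 and 3.58 CPM at day 1 and 22.3, 24.1 and 24.9 CPM at day 5 (log2 fold change 2.75 ± 0.12 SE, limma adjusted p = 7.30e-17). For both genes every day 5 library was several times above every day 1 library, and the DMSO libraries lay below 1 CPM on both days. Itih5 (ENSMUSG00000025780, chromosome 2, 10153571 to 10256529), a heavy chain of the inter-alpha-trypsin inhibitors that bind hyaluronan, had 8.54, 8.69 and 8.41 CPM at day 1 and 61.2, 62.1 and 59.8 CPM at day 5 (log2 fold change 2.83 ± 0.08 SE, limma adjusted p = 1.62e-20). Itih2, a second such heavy chain, had 3.44, 3.37 and 3.38 CPM at day 1 and 17.3, 18.5 and 18.5 CPM at day 5 (log2 fold change 2.41 ± 0.11 SE, limma adjusted p = 2.01e-16). Aebp1, a matrix protein that binds collagen, had 36.6, 37.1 and 35.9 CPM at day 1 and 139, 167 and 149 CPM at day 5 (log2 fold change 2.05 ± 0.06 SE, limma adjusted p = 5.87e-20). In all 5 genes the days did not overlap, which the rule for picking them required. The other genes picked by this rule were Clca3b (log2 fold change 2.75), of a family of chloride channel regulators with close copies, Arhgef26 (2.57), an activator of a small GTPase, Itga11 (2.46), a subunit of a collagen receptor, Pappa (2.41), a protease that frees insulin-like growth factors, Cp (2.25), the copper carrier ceruloplasmin, Tnfsf15 (2.20), a TNF family cytokine, and Sema3d (1.99), a secreted guidance molecule. All of them were called, with limma adjusted p from 3.60e-21 (Clca3b) to 8.02e-15 (Itga11).

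The 12 lowest called genes were picked by the same rule. Slurp1 (ENSMUSG00000022596, chromosome 15, 74724318 to 74728034), a secreted protein of squamous epithelium, had 128, 125 and 137 CPM at day 1 and 6.15, 8.18 and 7.21 CPM at day 5 (log2 fold change -4.19 ± 0.11 SE, limma adjusted p = 3.60e-21). Its DMSO libraries had 12.3, 10.7 and 10.4 CPM at day 1 and 18.6 and 23.8 CPM at day 5. The day 1 encorafenib libraries were thus the highest of the 11, and those of day 5 were below all DMSO libraries. Sprr2h, a cornified envelope protein, had 23, 20.99 and 20.9 CPM at day 1 and 1.07, 0.687 and 0.922 CPM at day 5 (log2 fold change -4.60 ± 0.22 SE, limma adjusted p = 9.32e-16). Sprr2a3 of the same family fell by 3.18 on the log2 scale. Members of that family are near-identical copies, so reads could be split between them and both values are uncertain. Krt13, a keratin of stratified epithelium, fell by 2.58. Aldh3a1 (ENSMUSG00000019102, chromosome 11, 61207537 to 61218421), an aldehyde dehydrogenase, had 325, 332 and 344 CPM at day 1 and 44.2, 45.7 and 42.5 CPM at day 5 (log2 fold change -2.92 ± 0.07 SE, limma adjusted p = 5.95e-23). It was at 94.5, 87.2 and 91.2 CPM at day 1 and 57.9 and 67.9 CPM at day 5 in DMSO, so the fall ended below the DMSO levels. Cxcr6, a chemokine receptor, had 12.7, 13.1 and 13.2 CPM at day 1 and 1.15, 1.45 and 1.53 CPM at day 5 (log2 fold change -3.23 ± 0.16 SE, limma adjusted p = 2.10e-15). Zap70, a kinase of the T cell receptor, had 11.2, 11.6 and 11.97 CPM at day 1 and 1.85, 1.84 and 1.57 CPM at day 5 (log2 fold change -2.72 ± 0.13 SE, limma adjusted p = 3.14e-16). Trbc1, a constant segment of that receptor, had 9.79, 12.03 and 11.3 CPM at day 1 and 1.96, 1.92 and 1.66 CPM at day 5 (log2 fold change -2.59 ± 0.13 SE, limma adjusted p = 1.40e-15), and Cd200r4, of a receptor family of leukocytes, fell by 2.95. These 4 genes are best known from leukocytes, and the part of such cells in their values was not tested. Tesc, a calcium-binding protein, Creb3l1, a transcription factor of the endoplasmic reticulum, and Stmn2, a microtubule regulator, fell by 2.86, 2.83 and 2.58.

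**Figure D1:**
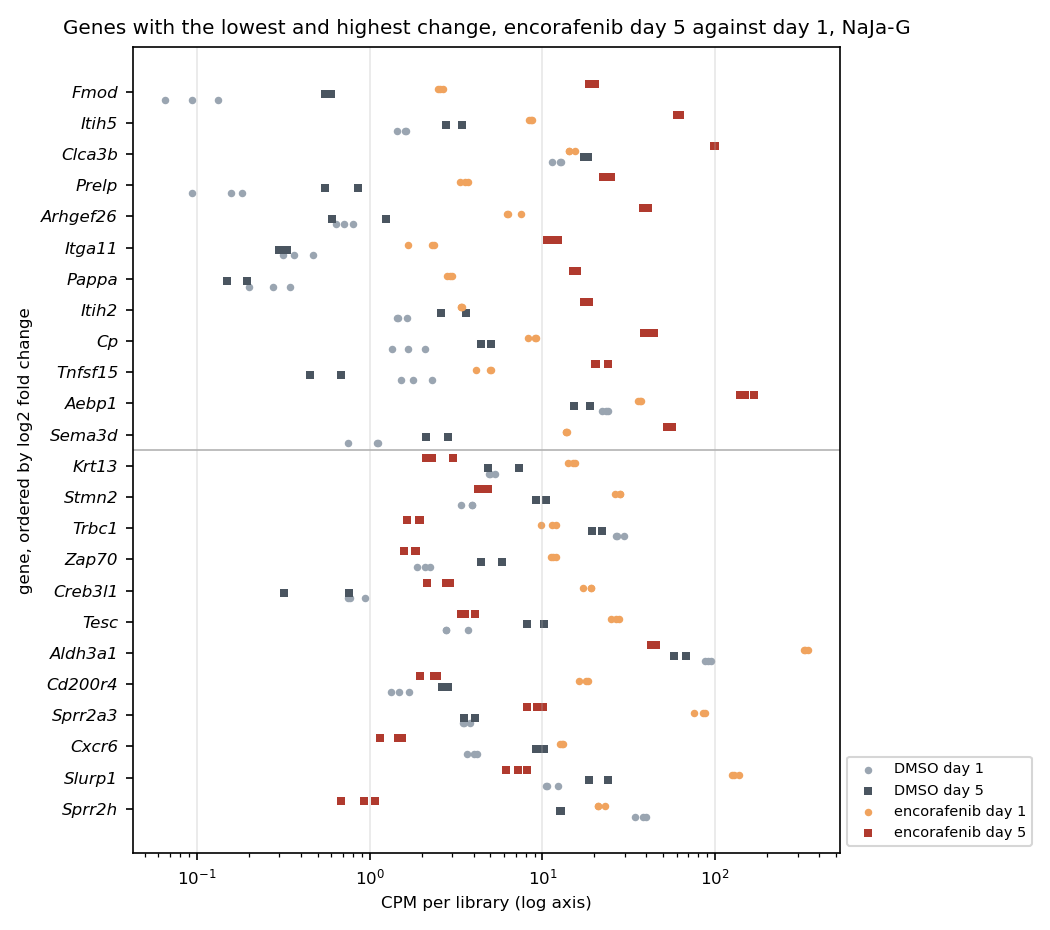
Levels of the 24 named genes (12 that rose and 12 that fell), 1 row per gene, with the CPM of each NaJa-G library on a log axis; circles are day 1, squares day 5, gray DMSO and orange or red encorafenib. In each row the 3 red squares lie apart from the 3 orange circles, which the rule for picking these genes required. Rows run from Fmod at the top (log2 fold change 2.90) to Sprr2h at the bottom (-4.60).

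Among genes of the engineered alleles, Braf had 46.4, 50.2 and 43.1 CPM at day 1 and 67.2, 63.3 and 66.4 CPM at day 5 (log2 fold change 0.49 ± 0.10 SE, limma adjusted p = 1.29e-04). Trp53 had 141, 131 and 138 CPM at day 1 and 147, 138 and 136 CPM at day 5 (log2 fold change 0.04 ± 0.05 SE, limma adjusted p = 0.492) and Apc had 255, 252 and 241 CPM at day 1 and 290.3, 289.5 and 295 CPM at day 5 (log2 fold change 0.23 ± 0.09 SE, limma adjusted p = 0.0273). Braf thus rose a little, and Trp53 and Apc did not pass the test in the main fit. Apc was called higher when only the 6 libraries were fitted (limma adjusted p = 1.76e-04). The same held with a term for the replicate number (0.0094) and when scaled by library size alone (0.0028). The counts do not tell mutant from wild-type transcripts.

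The ERK pathway genes moved in both directions and by modest amounts. Of 16 genes in the list of ERK feedback inhibitors 5 rose and 4 fell, with a median log2 fold change of 0.05 (all genes 0.01). Of all genes 20.6% rose and 20.4% fell. In DMSO 4 of the 16 rose and 5 fell (median -0.12). Dusp6, the ERK phosphatase that is often read as a gauge of pathway output, had 49.8, 45.9 and 48.6 CPM at day 1 and 51.8, 51.7 and 49.2 CPM at day 5 (log2 fold change 0.08 ± 0.08 SE, limma adjusted p = 0.361). Its DMSO libraries had 193, 174 and 173 CPM at day 1 and 137 and 193 CPM at day 5. Both encorafenib groups lay far below DMSO, with log2 differences of -1.91 at day 1 and -1.68 at day 5, and the days overlapped. Spry4, a Sprouty inhibitor of receptor signaling, had 2.05, 1.77 and 2.04 CPM at day 1 and 3.48, 3.18 and 2.86 CPM at day 5 (log2 fold change 0.70 ± 0.20 SE, limma adjusted p = 0.004), against 26.2, 23.1 and 23.6 CPM at day 1 and 19.5 and 29.2 CPM at day 5 in DMSO. Its call was lost when day 1 replicate 1 or 2 or day 5 replicate 1 or 2 was left out, with log2 fold changes from 0.62 to 0.75 and limma adjusted p up to 0.0279. The encorafenib libraries left Spry4 at -2.93 on the log2 scale relative to DMSO at day 5 (day 1: -3.64). Dusp4, a second phosphatase of this kind, had 74.7, 74.9 and 68.2 CPM at day 1 and 114, 114 and 115 CPM at day 5 (log2 fold change 0.65 ± 0.08 SE, limma adjusted p = 2.96e-07). Spry1 (0.82), Dusp10 (0.33) and Spred1 (0.33) also rose, while Dusp1 (-0.66) and Dusp5 (-0.54) fell. Lgals3 (-1.62), which also fell, codes for galectin 3, which is not a feedback inhibitor. Comparisons with DMSO share their encorafenib libraries with the comparison of the days and are given only side by side.

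Of 30 ERK-driven transcription factors and targets 8 rose and 9 fell (median -0.06, or 0.02 when scaled by library size alone). In DMSO 4 of the 30 rose and 12 fell (median -0.40). Between the arms the difference was called higher for 13 and lower for 5. Etv4 (ENSMUSG00000017724, chromosome 11, 101769742 to 101785371), an ETS factor induced by ERK, had 7.95, 7.52 and 7.89 CPM at day 1 and 26.5, 26.2 and 24.6 CPM at day 5 (log2 fold change 1.73 ± 0.09 SE, limma adjusted p = 3.17e-15). In DMSO it had 94.8, 95.8 and 99.9 CPM at day 1 and 93.7 and 103 CPM at day 5. The days were far apart, and the day 5 libraries were still under every DMSO library. Its close relative Etv5 had 10.99, 10.6 and 11.1 CPM at day 1 and 20.7, 17.98 and 18.7 CPM at day 5 (log2 fold change 0.81 ± 0.09 SE, limma adjusted p = 1.06e-08), against 82.03, 70.4 and 68.3 CPM at day 1 and 82.8 and 92.5 CPM at day 5 in DMSO. Epha4, an ephrin receptor, had 24.8, 23.1 and 25.9 CPM at day 1 and 47.5, 49.3 and 46.2 CPM at day 5 (log2 fold change 0.96 ± 0.07 SE, limma adjusted p = 1.59e-11), and its day 5 values lay near those of the DMSO day 5 libraries, 56.1 and 46.3 CPM. Fosl1, the AP-1 subunit most tied to ERK output, had 18.5, 18.2 and 16.8 CPM at day 1 and 21.5, 20.8 and 20.3 CPM at day 5 (log2 fold change 0.22 ± 0.11 SE, limma adjusted p = 0.0844) and stayed under the DMSO libraries, which had 171, 150.3 and 156 CPM at day 1 and 58.2 and 82.1 CPM at day 5. Fosl1 was called higher with GC correction (0.35, limma adjusted p = 6.6e-04) and when only the 6 libraries were fitted (0.0047). Cd44 (0.51) and Maff (0.54) rose, whereas Junb (-1.03), Srf (-0.67), Jun (-0.66) and Phlda1 (-0.69) fell. The rise of Etv4 differed from its change in DMSO (difference 1.71 ± 0.11 SE, limma adjusted p = 1.19e-12), and so did that of Etv5 (0.56, adjusted p = 2.20e-04) and Epha4 (1.18, adjusted p = 5.20e-10). Among 21 genes of the core cascade 3 rose (Braf, Ksr1 and Nf1) and 8 fell, with Shc1, the adaptor between receptors and RAS, at -0.70 and the ERK kinase Mapk3 at -0.32.

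**Figure D2:**
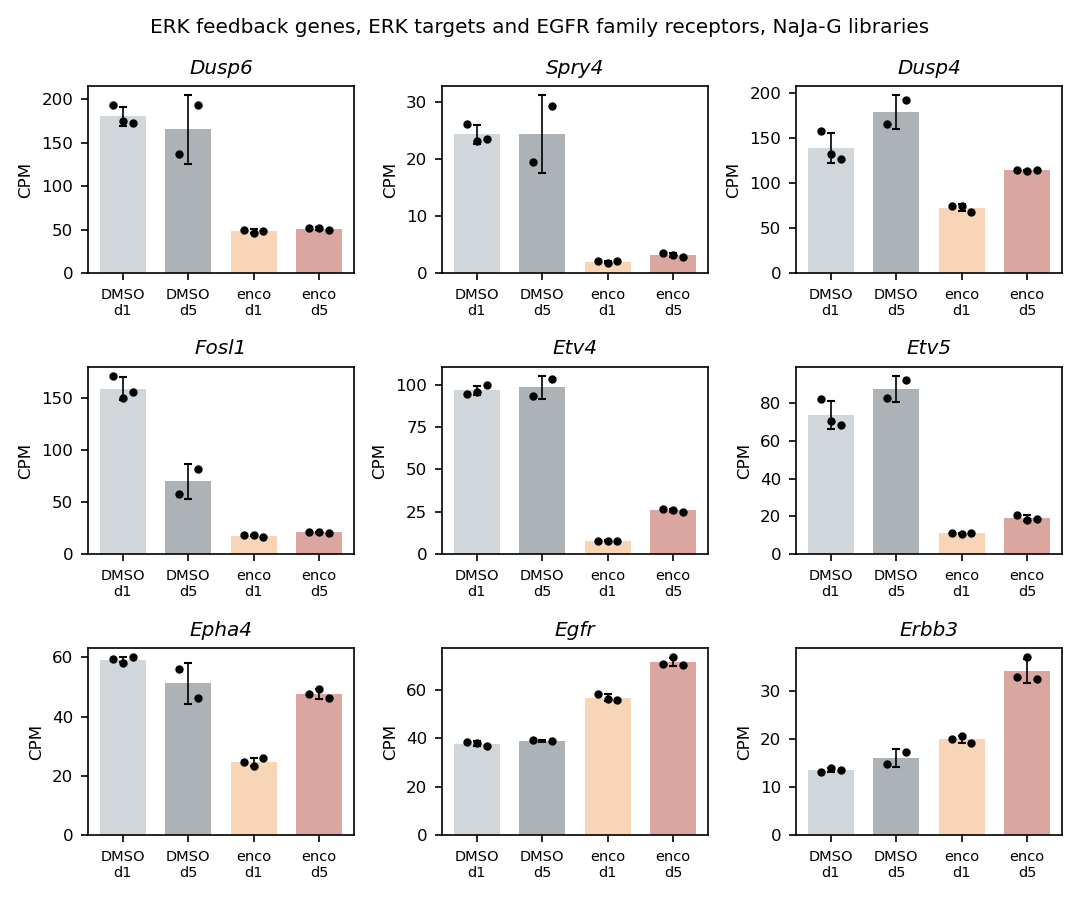
CPM of ERK feedback genes, ERK targets and receptors in the 11 NaJa-G libraries (bars, mean of the group; error bars, SD over 3 libraries, or 2 for DMSO day 5; points, single libraries; axes start at 0). Dusp6 is alike on both days of encorafenib (log2 fold change 0.08), Etv4 rises from 7.52 to 7.95 CPM at day 1 to 24.6 to 26.5 CPM at day 5, and Egfr and Erbb3 are highest at day 5 of encorafenib.

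Receptor kinases and their ligands rose more often than they fell. In the EGFR family 4 of 11 genes rose and 1 fell (median 0.27), where 20.6% of all genes rose and 20.4% fell. Erbb3, the kinase-poor partner of ERBB2, had 19.9, 20.7 and 19.3 CPM at day 1 and 33.01, 37.1 and 32.6 CPM at day 5 (log2 fold change 0.77 ± 0.07 SE, limma adjusted p = 1.74e-09), against 13.1, 13.96 and 13.6 CPM at day 1 and 14.8 and 17.3 CPM at day 5 in DMSO. Egfr itself had 58.5, 56.1 and 55.9 CPM at day 1 and 70.8, 73.6 and 70.3 CPM at day 5 (log2 fold change 0.33 ± 0.06 SE, limma adjusted p = 5.28e-05). The ligand Egf had 0.657, 0.925 and 0.425 CPM at day 1 and 2.22, 1.92 and 1.89 CPM at day 5 (log2 fold change 1.58 ± 0.32 SE, limma adjusted p = 1.37e-04), a low level in every library. The ligand Ereg rose by 0.39 and the ligand Tgfa, with 101, 102 and 99.4 CPM at day 1 and 65.2, 67.5 and 68.5 CPM at day 5, fell by 0.59 (2.26e-09, limma adjusted p). In DMSO 0 of the 11 genes rose and 4 fell, and the difference between the arms was called higher in 6 and lower in 1, or in 5 and 1 without both DMSO libraries numbered 1. Of 32 other receptor kinases and ligands 15 rose and 4 fell in encorafenib (median 0.36). The DMSO arm had 10 higher and 7 lower (median 0.21), and the difference between the arms was called higher for 9 and lower for 9. Gas6, the ligand of the TAM receptors, had 26.4, 26.1 and 26.2 CPM at day 1 and 102, 108 and 100 CPM at day 5 (log2 fold change 1.97 ± 0.06 SE, limma adjusted p = 1.62e-20). Of these receptors Mertk had 0.625, 0.634 and 0.688 CPM at day 1 and 1.81, 2.37 and 2.32 CPM at day 5 (log2 fold change 1.73 ± 0.16 SE, limma adjusted p = 1.25e-09), and Axl, with 412, 414 and 431 CPM at day 1 and 359, 379 and 351 CPM at day 5, was not called (log2 fold change -0.21 ± 0.09 SE, limma adjusted p = 0.0599). Ddr2, a receptor for collagen, had 3.75, 4.07 and 3.84 CPM at day 1 and 9.15, 9.85 and 9.67 CPM at day 5 (log2 fold change 1.29 ± 0.10 SE, limma adjusted p = 1.24e-11). Igf1 (0.99), Igf1r (0.49), Insr (0.43), Fgfr4 (1.45) and Pros1 (0.75) rose as well, and Pdgfa, with 156, 167 and 167 CPM at day 1 and 64.95, 73.8 and 72.7 CPM at day 5, fell (log2 fold change -1.21 ± 0.07 SE, limma adjusted p = 4.58e-14). The difference from DMSO was called for Gas6 (1.78, adjusted p = 1.35e-15), Mertk (1.56, 2.24e-06) and Ddr2 (2.25, 1.76e-09), all by limma.

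Mitotic genes moved in one direction. Of 40 genes of mitosis and G2/M 37 rose and 0 fell (median 0.44), where 20.6% of all genes rose, and edgeR and DESeq2 gave the same counts. At an unadjusted limma p below 0.05, 38 were higher and 0 lower. Mki67, the proliferation antigen Ki-67, had 358, 402 and 389.8 CPM at day 1 and 589, 621 and 639 CPM at day 5 (log2 fold change 0.69 ± 0.10 SE, limma adjusted p = 1.51e-06). Kif20b, a kinesin of cell division, had 47.1, 52.7 and 47.3 CPM at day 1 and 88.7, 81.5 and 89.1 CPM at day 5 (log2 fold change 0.82 ± 0.11 SE, limma adjusted p = 4.58e-07). Cdk1, the kinase that starts mitosis, had 126, 123 and 125 CPM at day 1 and 167, 155 and 159 CPM at day 5 (log2 fold change 0.36 ± 0.05 SE, limma adjusted p = 3.02e-06). In each of these genes the lowest day 5 library was above the highest day 1 library. Cenpe (0.78), a kinetochore motor, Kif11 (0.66), the spindle motor, Cenpf (0.65), Anln (0.64), Top2a (0.51) and Ccnb1 (0.47) rose too. The 3 that were not called were Ube2c (0.11, limma adjusted p = 0.332), Plk1 (0.14, 0.163) and Aurka (0.20, 0.03). Plk1 and Aurka were called higher by limma with GC correction (adjusted p = 0.0094 and 0.0099). The same held when only the 6 libraries were fitted (0.0054 and 0.0012). The level stayed under that in DMSO: relative to DMSO, all 40 genes were called lower at day 1 (of all genes 64.0% were called in either direction) and at day 5 (53.2%), with a median of -0.53 at day 5. Mki67 was at -1.10 relative to DMSO at day 1 and at -0.56 at day 5. In DMSO 4 of the 40 rose and 4 fell (median 0.02), and the difference between the arms was called higher for 31 and lower for 0. Leaving out the DMSO libraries numbered 1, singly or both, gave 28 to 32 higher and 0 lower.

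Most mitotic genes share a promoter feature that was not used to list them. The cell cycle homology region, TTTGAA on either strand, is the element through which the DREAM complex and MYBL2 with FOXM1 are known to act on such genes. It was searched in RefSeq promoters of build GRCm38.p6, from 250 bases before to 50 bases after the gene start. It was found in 26 of 35 promoters of the list (74.3%, 33 of 40 genes matched) and in 5878 of all 32851 promoters (17.9%). The promoters of the 3 genes just described and of Plk1, which was not called, are shown with each match in capitals, 5′ to 3′ on the strand of the gene. They lie at chr19:34922108-34922407 (Kif20b, plus strand), chr7:135716330-135716629 (Mki67, minus strand), chr10:69352863-69353162 (Cdk1, minus strand) and chr7:122159185-122159484 (Plk1, plus strand).
Kif20b: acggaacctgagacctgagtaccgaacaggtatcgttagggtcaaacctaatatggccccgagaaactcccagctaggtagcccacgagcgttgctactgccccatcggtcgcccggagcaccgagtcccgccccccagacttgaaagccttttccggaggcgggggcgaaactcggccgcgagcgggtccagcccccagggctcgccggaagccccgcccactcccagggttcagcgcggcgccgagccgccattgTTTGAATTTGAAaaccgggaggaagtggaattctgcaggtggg
Mki67: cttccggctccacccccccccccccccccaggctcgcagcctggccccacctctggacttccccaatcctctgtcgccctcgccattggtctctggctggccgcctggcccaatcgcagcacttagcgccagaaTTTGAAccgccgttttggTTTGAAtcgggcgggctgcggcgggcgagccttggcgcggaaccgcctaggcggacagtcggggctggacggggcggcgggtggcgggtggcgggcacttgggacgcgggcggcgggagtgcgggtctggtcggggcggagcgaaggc
Cdk1: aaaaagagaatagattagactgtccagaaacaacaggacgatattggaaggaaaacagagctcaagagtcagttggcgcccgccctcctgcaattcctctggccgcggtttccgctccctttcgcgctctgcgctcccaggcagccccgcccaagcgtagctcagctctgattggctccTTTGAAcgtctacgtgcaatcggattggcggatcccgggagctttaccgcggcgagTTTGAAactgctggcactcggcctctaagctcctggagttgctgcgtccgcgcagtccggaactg
Plk1: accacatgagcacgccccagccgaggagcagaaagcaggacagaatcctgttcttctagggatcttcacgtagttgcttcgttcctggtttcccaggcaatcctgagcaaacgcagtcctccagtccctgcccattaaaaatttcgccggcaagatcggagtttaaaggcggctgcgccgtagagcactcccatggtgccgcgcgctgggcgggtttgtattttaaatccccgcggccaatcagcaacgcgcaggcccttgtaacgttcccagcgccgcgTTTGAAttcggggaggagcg
Kif20b, Mki67 and Cdk1 hold 2 matches each and Plk1 holds 1. The letters were thus present both in genes that rose and in a gene not called in the main fit. All 3 genes uncalled in that fit had at least 1 match. A match describes letters in the reference and not binding.

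DNA replication genes moved less. Of 37 genes 11 rose and 2 fell (median 0.11). Scaled by library size alone, 17 rose and 1 fell, and without day 1 replicate 3 or without day 5 replicate 1 only 7 rose. Pole, the catalytic subunit of a replicative polymerase, had 92.1, 88.9 and 85.4 CPM at day 1 and 136, 136 and 133 CPM at day 5 (log2 fold change 0.61 ± 0.05 SE, limma adjusted p = 2.86e-11). Orc1, of the origin recognition complex, had 4.86, 4.97 and 4.51 CPM at day 1 and 6.63, 7.27 and 7.21 CPM at day 5 (log2 fold change 0.55 ± 0.11 SE, limma adjusted p = 1.98e-04). Mcm2, a subunit of the replicative helicase, had 224, 222 and 226 CPM at day 1 and 188, 189 and 183 CPM at day 5 (log2 fold change -0.26 ± 0.07 SE, limma adjusted p = 0.00183). In DMSO 0 rose and 16 fell (9 without the day 5 library numbered 1), and the difference between the arms was higher for 21 and lower for 0, or for 19 to 21 and 0 or 1 without DMSO libraries numbered 1. The E2F letters TTTCCCGC or TTTGGCGC, on either strand, stood in 10 of 36 promoters of this list (27.8%, 31 of 37 genes matched), in 0 of the 35 mitotic promoters and in 514 of all 32851 (1.56%). Pola1, the primase-bound polymerase, which rose (log2 fold change 0.38 ± 0.08 SE, limma adjusted p = 2.86e-04), is shown as an example, with the match in capitals. Its promoter is at chrX:93632106-93632405 (minus strand).
Pola1: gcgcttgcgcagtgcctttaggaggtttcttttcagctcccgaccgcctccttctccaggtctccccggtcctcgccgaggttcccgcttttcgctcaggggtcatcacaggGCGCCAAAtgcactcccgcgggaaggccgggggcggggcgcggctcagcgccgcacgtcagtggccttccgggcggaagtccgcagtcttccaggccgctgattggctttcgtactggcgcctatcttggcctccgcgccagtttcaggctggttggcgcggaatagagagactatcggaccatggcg
The capitals are the reverse complement of TTTGGCGC.

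Inhibitors of the cell cycle kinases moved apart. Cdkn1a, the inhibitor p21, had 26.1, 28.1 and 28.3 CPM at day 1 and 10.4, 10.5 and 10.9 CPM at day 5 (log2 fold change -1.37 ± 0.07 SE, limma adjusted p = 4.14e-15), against 20.2, 17.7 and 18.4 CPM at day 1 and 16.6 and 20.9 CPM at day 5 in DMSO. Day 1 of encorafenib was above DMSO and day 5 below it. Cdkn2a, the locus of p16 and p19, had 383, 386 and 382 CPM at day 1 and 202, 224 and 211 CPM at day 5 (log2 fold change -0.86 ± 0.12 SE, limma adjusted p = 8.55e-07). Its neighbor Cdkn2b had 112, 102 and 112 CPM at day 1 and 58.8, 65.5 and 65.6 CPM at day 5 (log2 fold change -0.78 ± 0.10 SE, limma adjusted p = 1.25e-07). Cdkn1b, the inhibitor p27, had 70.4, 80 and 65.2 CPM at day 1 and 105, 104 and 104 CPM at day 5 (log2 fold change 0.54 ± 0.12 SE, limma adjusted p = 6.00e-04), a rise that was also seen in DMSO (0.86, limma adjusted p = 1.30e-05). Ccne1, the cyclin of S phase entry, rose by 0.41, and Ccnd1, the D cyclin that ERK induces, had 1326, 1278 and 1287 CPM at day 1 and 1259, 1306 and 1270 CPM at day 5 (log2 fold change -0.02 ± 0.09 SE, limma adjusted p = 0.85). Over the whole list of 26 D cyclins, their kinases, E2F factors and inhibitors, 5 rose and 3 fell.

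**Figure D3:**
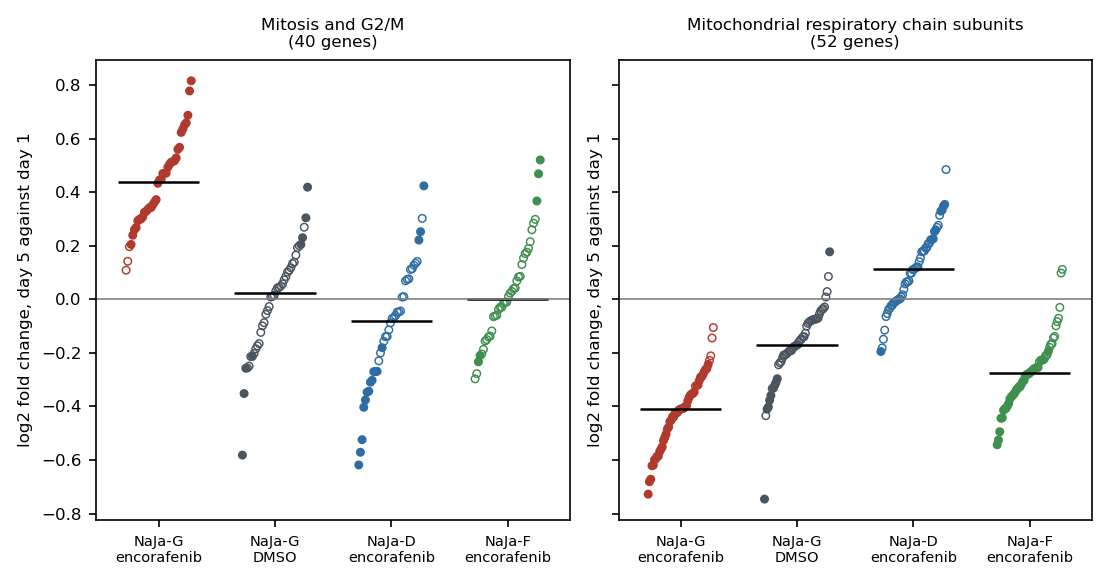
Log2 fold change of day 5 against day 1 for each of the 40 genes of mitosis and G2/M (left) and the 52 nuclear-coded subunits of the respiratory chain (right), in NaJa-G with encorafenib or DMSO and in NaJa-D and NaJa-F with encorafenib; filled points passed the test, open points did not, and black lines are medians. In encorafenib-treated NaJa-G cells the mitotic genes lie above 0 (median 0.44) and the respiratory genes below 0 (median -0.41).

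Matrix genes rose in number and size. Of 49 collagens, laminins and other matrix proteins 25 rose and 11 fell (median 0.38), and 15 of 31 matrix proteases and inhibitors rose and 4 fell (median 0.26). Over all genes 20.6% rose and 20.4% fell. Fn1, fibronectin, had 5087, 5020 and 4909 CPM at day 1 and 12110, 12810 and 11990 CPM at day 5 (log2 fold change 1.30 ± 0.08 SE, limma adjusted p = 4.54e-14). Dcn, the proteoglycan decorin, had 1.202, 0.991 and 1.19 CPM at day 1 and 11.97, 12.9 and 12.9 CPM at day 5 (log2 fold change 3.49 ± 0.19 SE, limma adjusted p = 1.51e-14). Col12a1, a collagen on fibril surfaces, had 110, 109 and 98.4 CPM at day 1 and 246, 261 and 247 CPM at day 5 (log2 fold change 1.25 ± 0.10 SE, limma adjusted p = 2.45e-11). The days were well separate in all 3. Lamb1, a laminin chain of basement membranes, had 47.2, 47.5 and 49.3 CPM at day 1 and 125, 131 and 124 CPM at day 5 (log2 fold change 1.40 ± 0.07 SE, limma adjusted p = 1.68e-15), a rise from a level that was far under the DMSO libraries, which had 318, 287 and 295 CPM at day 1 and 238 and 226 CPM at day 5. Ogn (2.64), Col11a1 (1.71), Col16a1 (1.44), the crosslinking enzymes Loxl2 (1.52) and Loxl1 (1.29), Lama4 (1.29), and Tnc (1.07) rose. Col1a2, a chain of collagen I, was at 0.14 (limma adjusted p = 0.193) and was not called. Tnxb, tenascin X, had 59.9, 60.3 and 58.1 CPM at day 1 and 11.4, 11.8 and 10.9 CPM at day 5 (log2 fold change -2.38 ± 0.08 SE, limma adjusted p = 8.06e-19) and was the strongest faller of the list, followed by Col6a3 (-1.28) and Smoc2 (-1.11). In DMSO 13 of the 49 rose and 18 fell, or 12 to 14 and 16 to 19 without the libraries numbered 1. The difference between the arms was called higher for 26 and lower for 10 (median 0.60), and without the DMSO libraries numbered 1 it was called higher for 24 to 26 and lower for 9 or 10. With genes under 2 log2 CPM left out of the fit, which drops part of the list, 13 matrix genes rose and 5 fell.

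Among the proteases, Plat, the tissue plasminogen activator, had 53.9, 52.7 and 55.7 CPM at day 1 and 124, 133 and 125 CPM at day 5 (log2 fold change 1.23 ± 0.07 SE, limma adjusted p = 7.77e-15). Adamts2, which trims procollagens, rose by 1.36, the stromelysin Mmp10 by 1.63 and the inhibitor Serpine2 by 1.36, while Timp1 (-0.51), an inhibitor of metalloproteases, fell. Of 16 integrins 6 rose and 4 fell. Itga2, like Itga11 a collagen receptor subunit, had 4.01, 4.19 and 3.78 CPM at day 1 and 11.7, 12.02 and 13.4 CPM at day 5 (log2 fold change 1.62 ± 0.15 SE, limma adjusted p = 1.09e-09), and Itga10, also of that class, had 5.71, 6.74 and 6.07 CPM at day 1 and 1.98, 2.11 and 2.03 CPM at day 5 (log2 fold change -1.60 ± 0.21 SE, limma adjusted p = 4.08e-07).

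Markers of fibroblasts and mesothelium were measured beside these genes, as cells of such kinds line the peritoneum. Of 12 fibroblast markers 6 were in the table, 2 rose (Dcn and Col3a1) and 0 fell, and their summed level was 95.6 to 112 CPM at day 1 and 121 to 137 CPM at day 5. Of 10 mesothelial markers 8 were in the table, 3 rose (Upk3b, Lrrn4 and Nkain4, at 5.14 CPM or less in every library) and 1 fell (Krt19). Of 10 endothelial markers 4 were in the table and 1 rose (Tie1, 2.38). The mesothelial sum was 3213 to 3491 CPM at day 1 and 2502 to 2757 CPM at day 5, most of it Krt19 and Msln, and was 1105 to 1404 CPM in DMSO. Msln, mesothelin, had 1327, 1521 and 1381 CPM at day 1 and 1581, 1736 and 1528 CPM at day 5 (log2 fold change 0.20 ± 0.12 SE, limma adjusted p = 0.163). The part of other cells in the matrix genes was not tested.

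Several contractile genes rose in encorafenib, while over the same days most of their list fell in DMSO. Acta2, smooth muscle actin, had 75.98, 69.6 and 75.05 CPM at day 1 and 156, 143 and 137 CPM at day 5 (log2 fold change 0.98 ± 0.07 SE, limma adjusted p = 1.50e-12). In DMSO it had 32.5, 27.5 and 27.2 CPM at day 1 and 3.56 and 3.85 CPM at day 5 (log2 fold change -2.96 ± 0.14 SE, limma adjusted p = 1.16e-15). Encorafenib day 5 was the highest of the 4 groups and DMSO day 5 the lowest. Cnn1, calponin, had 1.23, 1.55 and 1.901 CPM at day 1 and 10.8, 9.86 and 9.28 CPM at day 5 (log2 fold change 2.71 ± 0.13 SE, limma adjusted p = 1.44e-15) and Actg2, a second smooth muscle actin close in sequence to Acta2, had 5.48, 5.66 and 6.17 CPM at day 1 and 15.4, 15.4 and 13.9 CPM at day 5 (log2 fold change 1.37 ± 0.09 SE, limma adjusted p = 4.12e-13). In the list of 27 actin and mesenchymal cytoskeleton genes 11 rose and 6 fell in encorafenib, and 2 rose and 16 fell in DMSO (2 and 12 to 15 without the libraries numbered 1). S100a4, a calcium-binding protein used as a mesenchymal marker, had 26.03, 17.8 and 22.8 CPM at day 1 and 3.001, 3.79 and 4.75 CPM at day 5 (log2 fold change -2.51 ± 0.15 SE, limma adjusted p = 1.06e-13). Vim, vimentin, had 2360, 2305 and 2462 CPM at day 1 and 1834, 1911 and 1857 CPM at day 5 (log2 fold change -0.35 ± 0.11 SE, limma adjusted p = 0.0104). The main fit thus did not call Vim, while edgeR (adjusted p = 0.0047), DESeq2 (0.0030) and limma-trend (0.0048) called it lower. The transcription factors of the epithelial to mesenchymal transition did not move as one: of 23 such factors and epithelial guardians 7 rose and 9 fell. Zeb1 (0.30), Zeb2 (0.64) and Snai2 (0.31) rose and Twist1 (-0.77) fell, and of the epithelial factors Esrp1 (0.63) and Grhl2 (0.49) rose and Grhl3 (-2.23), Ehf (-1.08) and Elf3 (-0.69) fell. Grhl3, which guides epidermal differentiation, had 7.804, 8.31 and 8.48 CPM at day 1 and 2.096, 1.78 and 1.42 CPM at day 5.

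Of 37 TGF-beta ligands, receptors and targets 11 rose, among them Ltbp2 (1.30), which binds latent TGF-beta, Fstl1 (1.27), Tgfbr1 (0.59) and Ccn2 (0.84), and 8 fell, among them Tgfbi (-0.59), Smad7 (-0.32), Id1 (-0.82) and Bmp2 (-0.84). The median was 0.06, and -0.01 for the 25 YAP targets and fetal intestinal markers, of which 6 rose and 6 fell. Clu, a marker of regenerating intestinal cells, had 329, 290.3 and 329.9 CPM at day 1 and 572, 609.5 and 568 CPM at day 5 (log2 fold change 0.88 ± 0.08 SE, limma adjusted p = 1.41e-10), and Anxa8, an annexin of the fetal state, had 151, 145 and 150.4 CPM at day 1 and 45.6, 44.4 and 41.6 CPM at day 5 (log2 fold change -1.76 ± 0.06 SE, limma adjusted p = 7.09e-19). In the lists of TGF-beta and of YAP genes the medians are near that of all genes and change sign with the filter on low counts (TGF-beta, -0.05) or with library size scaling (YAP, 0.07). In DMSO 12 of the 37 TGF-beta genes rose and 6 fell, and 4 of the 25 YAP genes rose and 12 fell.

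Intestinal and epithelial genes fell more often than they rose in encorafenib. Of 18 genes of intestinal identity 7 fell and 3 rose (median -0.32), where 20.4% of all genes fell and 20.6% rose. Hnf4a, a master factor of intestinal epithelium, had 2.53, 2.82 and 2.89 CPM at day 1 and 0.407, 0.453 and 0.407 CPM at day 5 (log2 fold change -2.68 ± 0.21 SE, limma adjusted p = 3.77e-11), against 5.95, 4.22 and 5.07 CPM at day 1 and 3.997 and 3.95 CPM at day 5 in DMSO. Cdx2, the intestinal homeobox factor, had 3.61, 4.07 and 4.13 CPM at day 1 and 1.28, 1.14 and 1.45 CPM at day 5 (log2 fold change -1.60 ± 0.22 SE, limma adjusted p = 6.44e-07), against 9.88, 7.86 and 8.3 CPM at day 1 and 8.93 and 8.93 CPM at day 5 in DMSO. Both were lowest at day 5 of encorafenib. Lgals4, an intestinal galectin, had 4.695, 4.64 and 4.51 CPM at day 1 and 1.16, 1.31 and 0.977 CPM at day 5 (log2 fold change -2.02 ± 0.24 SE, limma adjusted p = 8.94e-08), which brought it close to the DMSO libraries at 0.995, 1.46 and 1.08 CPM at day 1 and 1.25 and 1.36 CPM at day 5. Vil1, villin, fell by 1.47. In DMSO 5 of the 18 genes of intestinal identity rose and 2 fell (median 0.12). Between the arms the difference was called higher for 1 and lower for 8. Of 34 junction and keratin genes 14 fell and 8 rose in encorafenib (median -0.13). The DMSO arm had 14 lower and 4 higher (median -0.35). For this list the difference between the arms was called higher for 10 and lower for 9 (median 0.27). Krt19, a keratin of simple epithelium, had 1883, 1968 and 1917 CPM at day 1 and 972, 1010 and 964 CPM at day 5 (log2 fold change -0.97 ± 0.10 SE, limma adjusted p = 9.83e-09). Cdh1, E-cadherin, had 841, 787 and 848 CPM at day 1 and 562, 592 and 564 CPM at day 5 (log2 fold change -0.53 ± 0.07 SE, limma adjusted p = 4.23e-07). In contrast Epcam, an epithelial adhesion molecule, had 80.5, 79.1 and 85.1 CPM at day 1 and 129.6, 149.6 and 139 CPM at day 5 (log2 fold change 0.77 ± 0.06 SE, limma adjusted p = 5.99e-11). Dsg2 (0.96), Cldn1 (1.33) and Ocln (0.49) of desmosomes and tight junctions rose with it, and Krt8 (-0.85), Krt18 (-0.41), Dsp (-0.68) and Krt23 (-1.35) fell.

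WNT feedback and stem cell genes moved in opposite directions in the arms. In encorafenib 11 of 22 fell and 2 rose (median -0.34), and in DMSO 0 fell and 13 rose (median 0.52). The difference was called lower for 16 and higher for 2, and for 15 or 16 and 1 or 2 without the DMSO libraries numbered 1. Nkd1, a WNT antagonist induced by the pathway, had 293, 302 and 289 CPM at day 1 and 107, 120.3 and 118 CPM at day 5 (log2 fold change -1.36 ± 0.08 SE, limma adjusted p = 8.25e-14). In DMSO it had 97.9, 78.2 and 78.2 CPM at day 1 and 160.1 and 203 CPM at day 5. Encorafenib was above DMSO at day 1 and below it at day 5. Notum, a secreted WNT deacylase, had 80.98, 86.1 and 79.6 CPM at day 1 and 49.7, 60.8 and 54.02 CPM at day 5 (log2 fold change -0.59 ± 0.10 SE, limma adjusted p = 2.37e-05), and in DMSO 11.3, 13.4 and 15.3 CPM at day 1 and 58.9 and 82.2 CPM at day 5. Apcdd1 had 110.2, 121 and 109 CPM at day 1 and 63.3, 67.1 and 67.6 CPM at day 5 (log2 fold change -0.78 ± 0.07 SE, limma adjusted p = 9.30e-10), and in DMSO 34.3, 30.7 and 29.5 CPM at day 1 and 86.9 and 105 CPM at day 5. Lef1 (-0.68), Tcf7 (-0.58), Rnf43 (-0.48) and Bambi (-0.89) fell. Axin2, the standard readout of the pathway, had 428, 452 and 403 CPM at day 1 and 417, 449 and 436 CPM at day 5 (log2 fold change 0.02 ± 0.06 SE, limma adjusted p = 0.769) and in DMSO 217, 223 and 219 CPM at day 1 and 405 and 428 CPM at day 5, so that all groups but DMSO day 1 lay between 403 and 452 CPM. Lgr5, the intestinal stem cell receptor, had 14.9, 15.4 and 15.03 CPM at day 1 and 20.4, 21.3 and 21.3 CPM at day 5 (log2 fold change 0.48 ± 0.06 SE, limma adjusted p = 7.25e-08) and in DMSO 6.503, 7.66 and 7.02 CPM at day 1 and 22.1 and 20.1 CPM at day 5. Of 17 Notch genes 6 rose, among them Notch4 (0.68), Notch2 (0.49) and Jag1 (0.50), and 3 fell, the targets Hes1 (-0.43) and Hes6 (-1.15) and the ligand Jag2 (-0.49).

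Genes of oxidative phosphorylation fell by small and even amounts. Of 52 nuclear-coded subunits of the respiratory chain and ATP synthase 46 fell and 0 rose (median -0.41), where 20.4% of all genes fell, and at an unadjusted limma p below 0.05 all 52 were lower. Cox8a, of cytochrome oxidase, had 156, 133 and 151 CPM at day 1 and 81.5, 94.8 and 89.5 CPM at day 5 (log2 fold change -0.73 ± 0.16 SE, limma adjusted p = 3.62e-04). Ndufa2, of complex I, had 89.8, 84.2 and 89.9 CPM at day 1 and 52.7, 60.1 and 53.2 CPM at day 5 (log2 fold change -0.67 ± 0.09 SE, limma adjusted p = 5.79e-07). Atp5d, of ATP synthase, had 178, 168 and 175 CPM at day 1 and 105, 112 and 108 CPM at day 5 (log2 fold change -0.68 ± 0.15 SE, limma adjusted p = 2.95e-04). Sdha had the smallest change of the list (-0.11). Transcripts coded by mitochondrial DNA took 3.29% to 3.79% of counts at day 1 and 2.10% to 2.58% at day 5, and 4.14% to 4.61% and 1.19% to 1.77% in DMSO. In DMSO 8 of the 52 fell and 1 rose (median -0.17), with 4 or 5 lower when DMSO libraries numbered 1 were left out, and the difference was called lower for 12 and higher for 1. Without the same libraries it was lower for 12 to 20. Glycolytic genes fell too: of 37 genes of glycolysis and the hypoxia response 17 fell and 10 rose (median -0.23). Pkm (-0.74), Tpi1 (-0.54), Gapdh (-0.53), Aldoa (-0.44) and Ldha (-0.39) of the pathway itself fell, and Hk2 (0.82), the first enzyme, Vegfa (0.69) and the carbonic anhydrase Car12 (1.41) rose. In DMSO 9 of these 37 genes rose and 10 fell (median -0.11). Between the arms the difference was called higher for 7 and lower for 8.

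Cytosolic ribosomal proteins fell in 28 of 67 genes and rose in 0 (median -0.25), and in DMSO in 34 and 0 (median -0.33), or 4 to 14 without DMSO libraries numbered 1. The count for encorafenib was 15 without day 1 replicate 1 and 62 when only the 6 libraries were fitted. Their share of all counts was 2.87% to 2.95% at day 1 and 2.48% to 2.59% at day 5. These genes have many pseudogene copies, so single values are uncertain. Genes of MYC and ribosome biogenesis rose in 14 and fell in 6 of 48 (median 0.08), with 9 higher when day 1 replicate 3 or day 5 replicate 1 was left out, whereas in DMSO 36 fell and 4 rose (median -0.52), or 33 or 34 and 2 to 4 without the libraries numbered 1. Npm1, a nucleolar chaperone, had 572, 589 and 608 CPM at day 1 and 601, 583 and 618 CPM at day 5 (log2 fold change 0.03 ± 0.06 SE, limma adjusted p = 0.747), and in DMSO 1837, 1634 and 1659 CPM at day 1 and 1127 and 1064 CPM at day 5 (log2 fold change -0.64 ± 0.08 SE, limma adjusted p = 1.12e-07). Its encorafenib libraries overlapped between the days and were under all DMSO libraries. Myc itself was at -0.01 (limma adjusted p = 0.895). The difference between the arms was called higher for 36 genes and lower for 5, or for 31 to 35 and 5 without DMSO libraries numbered 1.

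Cholesterol genes rose in DMSO and moved in both directions in encorafenib. In DMSO 27 of 28 genes of cholesterol synthesis and uptake rose and 0 fell (median 0.74), and in encorafenib 4 rose and 7 fell (median -0.08). Insig1, the sterol sensor's anchor, rose in both arms, with 109, 102 and 103 CPM at day 1 and 165, 169.8 and 167 CPM at day 5 (log2 fold change 0.67 ± 0.06 SE, limma adjusted p = 1.31e-09) and in DMSO 128, 123 and 116 CPM at day 1 and 318 and 331 CPM at day 5. The difference between the arms was called lower for 25 of the 28 genes and higher for 0, and the counts were the same when the DMSO libraries numbered 1 were left out. Of 22 fatty acid genes 8 rose in encorafenib, among them Gpam (0.38), Scd1 (0.33) and Fads1 (0.48), and 4 fell. The number that rose was 5 without day 5 replicate 1 or 2, 13 when scaled by library size alone and 13 when only the 6 libraries were fitted. In DMSO 15 rose and 0 fell by limma, with 12 higher without the day 5 library numbered 1.

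NRF2 antioxidant targets fell in 19 of 32 and rose in 3 (median -0.38), where 20.4% of all genes fell and 20.6% rose. Nqo1, the quinone reductase that typifies the group, had 60.2, 56.1 and 59.2 CPM at day 1 and 12.5, 12.2 and 11.7 CPM at day 5 (log2 fold change -2.27 ± 0.07 SE, limma adjusted p = 3.10e-20), against 23.6, 23.1 and 22.8 CPM at day 1 and 21.3 and 21.2 CPM at day 5 in DMSO. Fth1, the ferritin heavy chain, had 1234, 1105 and 1227 CPM at day 1 and 539, 555 and 569 CPM at day 5 (log2 fold change -1.10 ± 0.12 SE, limma adjusted p = 2.48e-08). Gsta4 (-0.87), Pgd (-0.76), Gstm1 (-0.72), Prdx1 (-0.51) and the cystine carrier Slc7a11 (-0.81) fell. The 3 that rose were Osgin1 (1.35), Gclc (0.60), which makes glutathione, and Hmox1, heme oxygenase, with 25.4, 26.5 and 27.4 CPM at day 1 and 38.3, 39.02 and 37.8 CPM at day 5 (log2 fold change 0.54 ± 0.07 SE, limma adjusted p = 1.09e-07). Scaled by library size alone, 6 rose. In DMSO 8 of the 32 rose and 12 fell (median -0.15). Between the arms the difference was called higher for 6 and lower for 15. Genes of the ATF4 and unfolded protein responses rose in 19 of 44 and fell in 3 (median 0.21). Trib3, a pseudokinase induced by ATF4, had 2.76, 2.91 and 2.83 CPM at day 1 and 7.81, 6.66 and 7.46 CPM at day 5 (log2 fold change 1.36 ± 0.14 SE, limma adjusted p = 4.01e-09). Mthfd2, of mitochondrial folate metabolism, had 38.8, 36.4 and 39.1 CPM at day 1 and 68.8, 63.9 and 64.2 CPM at day 5 (log2 fold change 0.79 ± 0.07 SE, limma adjusted p = 6.89e-11). Ern1, the stress sensor IRE1, had 41.2, 45.7 and 38.7 CPM at day 1 and 84.01, 92.7 and 86.2 CPM at day 5 (log2 fold change 1.06 ± 0.09 SE, limma adjusted p = 1.41e-10). Asns (0.58), Ddit3 (0.63), Aldh18a1 (0.86) and Eif2ak3 (0.48) rose, and Slc7a11 was among the genes that fell. In DMSO 10 of the 44 rose and 12 fell, or 7 to 10 in each direction without DMSO libraries numbered 1. Lysosome and autophagy genes rose in 17 of 51, among them Hexa (0.79) and Gaa (0.77), and fell in 10, among them Gabarap (-0.64).

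**Figure D4:**
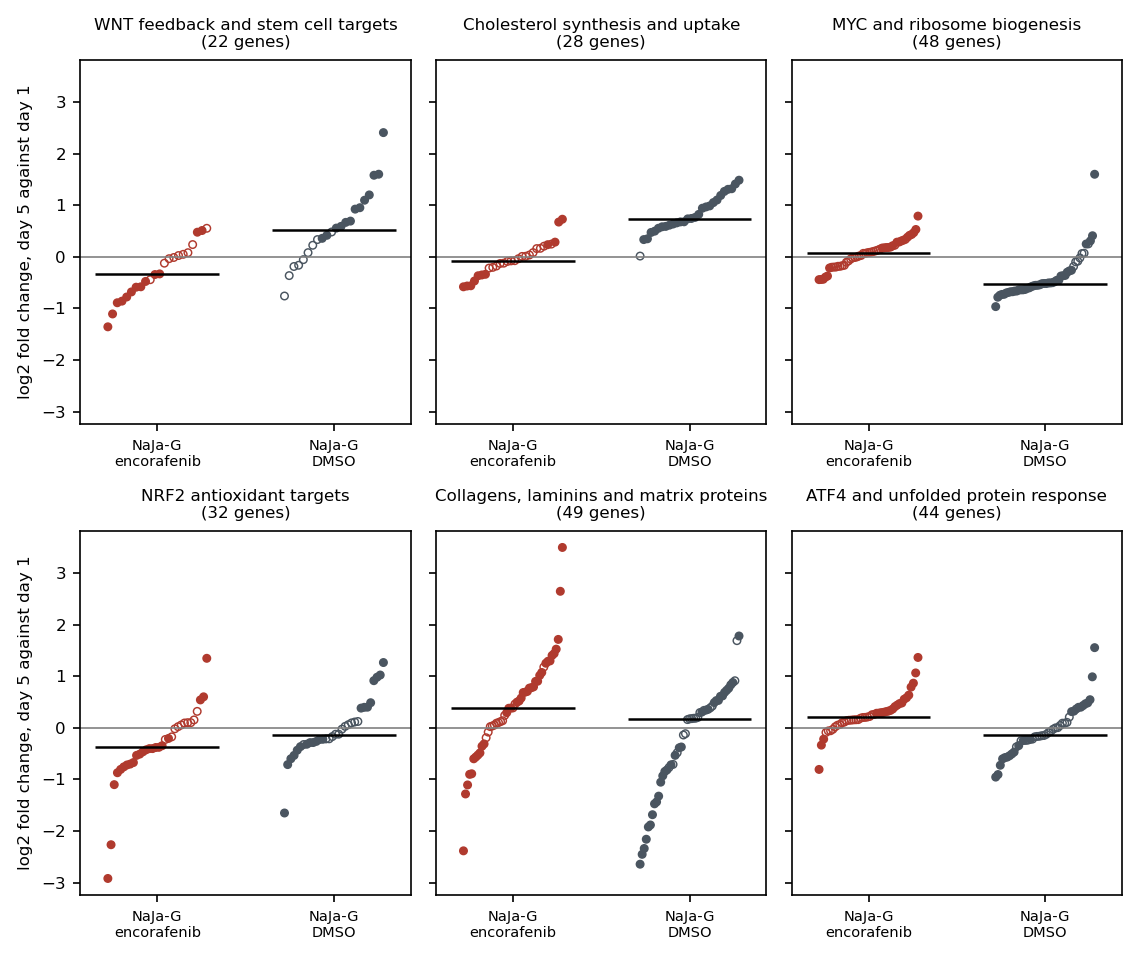
Log2 fold change of day 5 against day 1 in NaJa-G cells for each gene of 6 lists, with encorafenib in red and DMSO in gray; filled points passed the test, open points did not, and black lines are medians. WNT feedback genes have medians of -0.34 in encorafenib and 0.52 in DMSO, cholesterol genes -0.08 and 0.74, and MYC and ribosome biogenesis genes 0.08 and -0.52.

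Genes of the BCL2 family, which set the threshold for cell death at mitochondria, fell in 9 of 16 and rose in 2 (median -0.25). Over all genes 20.4% fell and 20.6% rose. In DMSO 5 of the 16 rose and 3 fell (median 0.10). Between the arms the difference was called higher for 2 and lower for 6. Bmf, a death-promoting BH3-only protein, had 26.1, 29.6 and 26.5 CPM at day 1 and 11.4, 11.9 and 12.1 CPM at day 5 (log2 fold change -1.22 ± 0.11 SE, limma adjusted p = 7.48e-10). In DMSO it had 4.33, 4.14 and 3.79 CPM at day 1 and 24.97 and 24.9 CPM at day 5. It was thus above DMSO at day 1 and below it at day 5, and within DMSO it rose. Bok, a pore-forming relative of BAX, had 48.4, 48.1 and 45.8 CPM at day 1 and 23.2, 22.96 and 20.9 CPM at day 5 (log2 fold change -1.09 ± 0.11 SE, limma adjusted p = 5.33e-09). Bcl2l11, the BH3-only protein BIM that ERK keeps low, had 109.7, 116 and 106 CPM at day 1 and 94.9, 98.7 and 100 CPM at day 5 (log2 fold change -0.17 ± 0.07 SE, limma adjusted p = 0.0406), and in DMSO 39.5, 40.4 and 36.4 CPM at day 1 and 133 and 110.3 CPM at day 5. Its 6 encorafenib libraries did not overlap between the days but the difference did not pass the test in the main fit. Bcl2l11 was called lower with GC correction (-0.23, limma adjusted p = 0.0070) and when only the 6 libraries were fitted (0.0021). Bcl2, the protective founding member, rose (log2 fold change 0.27 ± 0.07 SE, limma adjusted p = 9.68e-04), and protective Mcl1 (-0.25) and Bcl2l1 (-0.35) fell with death-promoting Bad (-0.46). Of 25 p53 target genes 6 rose and 8 fell (median 0.00), and of 17 caspases, gasdermins and IL-1 family genes 5 rose and 4 fell. Il18 had 8.83, 9.597 and 9.73 CPM at day 1 and 3.17, 3.699 and 3.59 CPM at day 5 (log2 fold change -1.43 ± 0.12 SE, limma adjusted p = 5.45e-11), and in the DMSO libraries it was at 0.139 CPM at most. In the list of insulin, PI3K and FOXO genes 7 of 24 rose in encorafenib, among them Sesn1 (0.52) and Pik3ca (0.32), and 6 fell, among them Foxo3 (-0.40) and Pik3r1 (-0.35). The DMSO arm had 15 higher and 1 lower (median 0.36). For this list the difference between the arms was called higher for 2 and lower for 13 (median -0.53). Without the day 1 DMSO library numbered 1 these counts were the same.

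Immune genes were mixed. Of 20 class I and antigen loading genes 9 rose and 6 fell (median 0.10). B2m, the light chain of class I molecules, had 145, 133 and 147 CPM at day 1 and 245, 260.1 and 260.2 CPM at day 5 (log2 fold change 0.85 ± 0.07 SE, limma adjusted p = 1.05e-10). H2-K1, a classical heavy chain, had 53.8, 54.4 and 57.9 CPM at day 1 and 77.8, 91.9 and 80.2 CPM at day 5 (log2 fold change 0.59 ± 0.07 SE, limma adjusted p = 2.06e-07). Mouse class I heavy chains share sequence, so counts may be split between them. H2-T23 (-0.76), Tapbp (-0.41) and Psme1 (-0.31) fell. Of 38 interferon genes 15 rose, among them Bst2 (0.97), Irf9 (0.66), Ifih1 (0.78) and Ifit2, which had 0.753, 0.449 and 0.688 CPM at day 1 and 2.49, 2.19 and 2.13 CPM at day 5 (log2 fold change 1.89 ± 0.19 SE, limma adjusted p = 3.09e-09), and 8 fell, among them Ifitm1 (-2.00) and Ifitm3 (-0.96). The DMSO arm had 14 of the 38 interferon genes higher and 3 lower (median 0.19, encorafenib 0.18). For this list the difference between the arms was called higher for 4 and lower for 7. Of 18 checkpoint ligands and regulators 6 rose and 2 fell in encorafenib. Pdcd1lg2, the ligand PD-L2, had 3.77, 3.62 and 3.18 CPM at day 1 and 0.422, 0.499 and 0.4204 CPM at day 5 (log2 fold change -2.97 ± 0.23 SE, limma adjusted p = 1.23e-11), against 20.2, 19.4 and 20.2 CPM at day 1 and 8.43 and 8.51 CPM at day 5 in DMSO. Cd274, the ligand PD-L1, had 2.804, 3.19 and 3.56 CPM at day 1 and 3.21, 3.11 and 2.97 CPM at day 5 (log2 fold change -0.03 ± 0.13 SE, limma adjusted p = 0.877), and Lgals9, galectin 9, had 73.8, 68.6 and 73.02 CPM at day 1 and 121, 115 and 114 CPM at day 5 (log2 fold change 0.70 ± 0.07 SE, limma adjusted p = 3.14e-09). Of 24 chemokines and secreted factors 10 rose and 1 fell (median 0.41). Vegfa, the angiogenic factor, had 83.5, 83.1 and 77.3 CPM at day 1 and 129, 134 and 130 CPM at day 5 (log2 fold change 0.69 ± 0.07 SE, limma adjusted p = 1.82e-09). Csf1, the macrophage growth factor, had 131, 123 and 132 CPM at day 1 and 189, 198 and 191 CPM at day 5 (log2 fold change 0.58 ± 0.05 SE, limma adjusted p = 1.09e-10), a rise where DMSO fell (-0.74). Cxcl1 (0.98), Vegfb (0.78), Vegfc (0.47) and Lif (0.56) rose as well.

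Guidance genes, named for steering axons and shared with tumor cells, rose in 20 of 51 and fell in 12 in encorafenib (median 0.19). The DMSO arm had 20 higher and 4 lower (median 0.19). For this list the difference between the arms was called higher for 12 and lower for 16. Ntn1, netrin 1, had 1.78, 1.59 and 1.699 CPM at day 1 and 8.43, 8.79 and 8.08 CPM at day 5 (log2 fold change 2.32 ± 0.15 SE, limma adjusted p = 4.05e-13). Slit2, a ligand of Robo receptors, had 22.9, 22.2 and 20.4 CPM at day 1 and 66.5, 70.6 and 68.7 CPM at day 5 (log2 fold change 1.65 ± 0.08 SE, limma adjusted p = 3.82e-16). Sema3a (1.19) rose with Sema3d, while Plxnd1 (-1.32), a semaphorin receptor, and the ephrin Efna3 (-1.38) fell. Histone genes were few, and of 10 measured 5 rose and 1 fell.

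**Figure D5:**
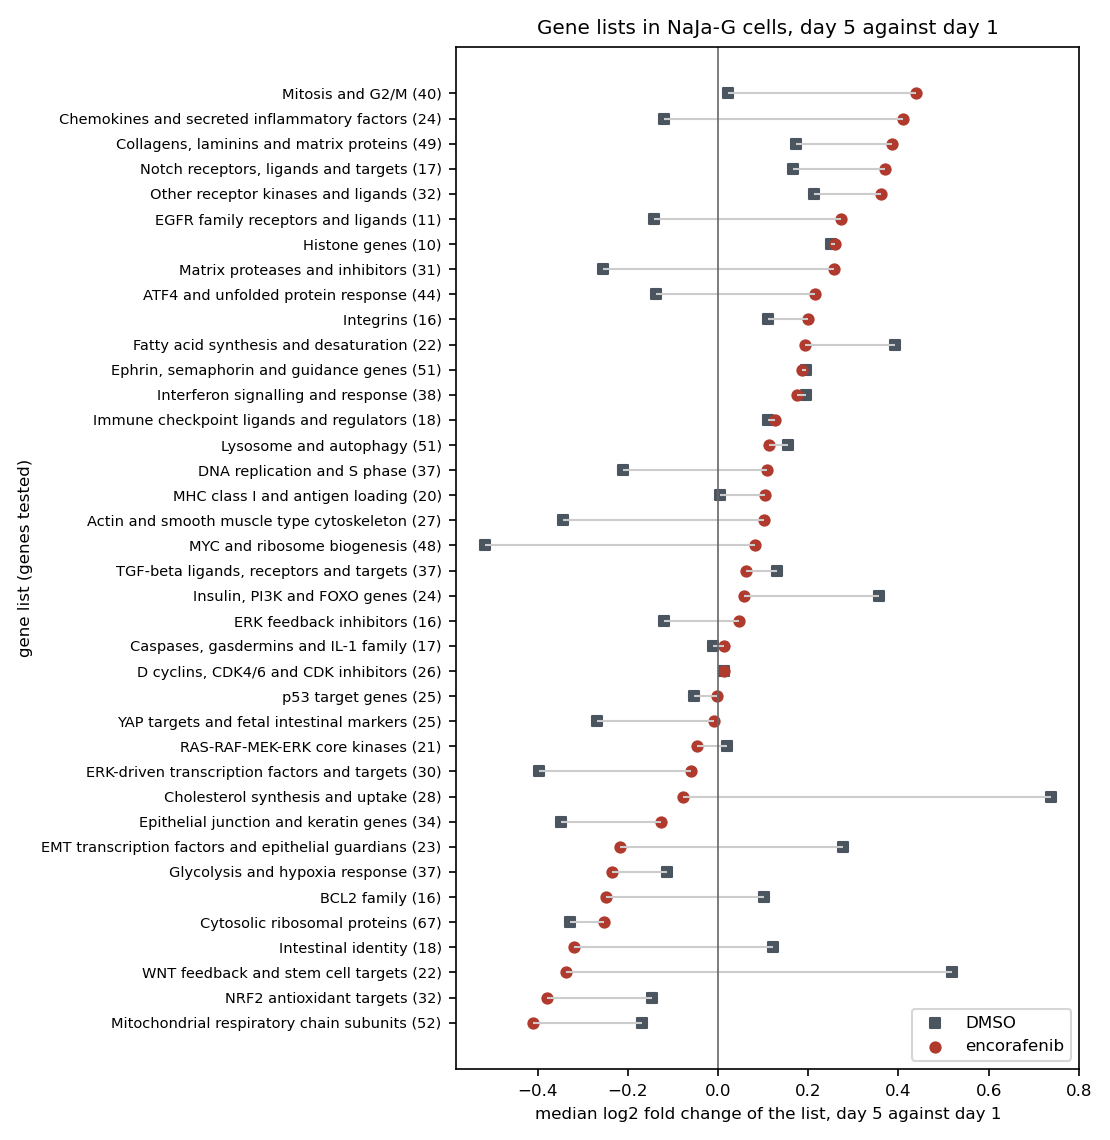
Median log2 fold change of day 5 against day 1 for 38 gene lists in NaJa-G cells, with encorafenib as red circles, DMSO as gray squares and the number of genes tested in parentheses. Mitosis and G2/M has the highest median in encorafenib (0.44) and the respiratory chain the lowest (-0.41), and the WNT feedback and stem cell genes have the widest gap between the arms (-0.34 and 0.52).

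The genes named for the size of their difference between the arms were 5 with a higher and 4 with a lower change in encorafenib. Acta2 differed by 3.95 ± 0.15 SE on the log2 scale (limma adjusted p = 1.61e-17), Lce1h by 3.38, Loxl2 by 2.96, Dgkk by 2.95 and Ctla2a by 2.76, all higher in encorafenib. Lce1h, a cornified envelope gene, had 9.92, 9.73 and 9.95 CPM at day 1 and 13.4, 15.2 and 14.3 CPM at day 5 in encorafenib and 10.2, 8.34 and 9.55 CPM at day 1 and 0.853 and 1.83 CPM at day 5 in DMSO. Most of its difference thus came from the fall in DMSO. Among the lowest were Slurp1 (-5.11 ± 0.16 SE, adjusted p = 3.55e-19), Cxcr6 (-4.52), Tesc (-4.43) and Prss35 (-4.10). Prss35, a protease-like protein, had 15.9, 15.7 and 17.3 CPM at day 1 and 18.1, 19.7 and 19.2 CPM at day 5 in encorafenib and 0.301, 0.402 and 0.383 CPM at day 1 and 6.57 and 8.02 CPM at day 5 in DMSO. For Prss35 the larger move was the one in DMSO. All 9 genes were also called without either or both of the DMSO libraries numbered 1, which left 4124 to 4593 genes called in all.

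The same days in encorafenib were compared with those of the other lines by the test of the difference. Between the days 3772 genes were called in NaJa-D (26.7%) and 3174 in NaJa-F (22.5%), where NaJa-F had 2 libraries at day 5. The change in NaJa-G differed from that in NaJa-D for 5284 genes (37.5%), 2706 higher and 2578 lower, and from that in NaJa-F for 1569 genes (11.1%), 1016 higher and 553 lower. Without encorafenib day 1 replicate 3 of NaJa-D, 6292 genes differed from NaJa-D. Ribosomal protein genes took 2.68% of counts in that library, against 2.27% and 2.26% in replicates 1 and 2. Mitotic genes had a median of -0.08 in NaJa-D (3 higher, 13 lower) and 0.00 in NaJa-F (3 and 2). The change was higher in NaJa-G for 30 of 40 genes against NaJa-D and 25 against NaJa-F, and lower for 0 and 0. Mki67 was at -0.62 in NaJa-D and 0.30 in NaJa-F, against 0.69 in NaJa-G, and for this gene the difference was called against NaJa-D (limma adjusted p = 2.43e-08) but not against NaJa-F (0.0706). Respiratory chain genes had a median of 0.11 in NaJa-D and -0.27 in NaJa-F, where the change was called lower in NaJa-G for 40 of 52 genes against NaJa-D. Against NaJa-F limma called 0 of them in either direction and DESeq2 called 2 lower, and at an unadjusted p below 0.05 limma gave 9 lower and 0 higher. Ribosomal protein genes rose in 31 of 67 in NaJa-D, and 56 were lower in NaJa-G by the test of the difference. In NaJa-F 13 of them fell (median -0.25), and against NaJa-F limma, edgeR and DESeq2 each called 0 in either direction, with 3 lower and 0 higher at an unadjusted p below 0.05.

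Matrix genes changed higher in NaJa-G for 19 of 49 against NaJa-D and 15 against NaJa-F, and lower for 3 and 2, and proteases for 13 and 15 of 31, with 0 and 0 lower. Against NaJa-D the highest differences were those of Arhgef26 (2.64 ± 0.16 SE, limma adjusted p = 1.38e-12), Clca3a1 (2.43), Clca3b (2.15) and Usp17lc (2.03), and the lowest those of Sprr2h (-3.81), Tesc (-2.65), Grhl3 (-2.62) and Sprr2a3 (-2.58). Clca3a1 and Usp17lc also belong to families with close copies. Against NaJa-F the highest were Itih5 (2.83 ± 0.27 SE, adjusted p = 8.94e-09), Clca3b (2.52), the glycosyltransferase Galnt14 (2.33) and Acta2 (2.30), and the lowest Sprr2h (-2.94), Prdm1 (-2.54), a repressor of differentiation programs, Tesc (-2.30) and Trbc1 (-2.10). Galnt14 fell in NaJa-F (-0.996) and rose in NaJa-G (1.33), and Prdm1 did the reverse (1.12 and -1.41). Aldh3a1 and Nqo1 fell in all 3 lines, with log2 fold changes of -1.83 and -1.42 in NaJa-D and of -2.45 and -1.54 in NaJa-F. The cell line entry of 1 NaJa-D library, DMSO day 1 replicate 3, reads NaJa-G although its title does not, and its title was followed. It enters none of these comparisons except through the pooled estimate of the spread.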

How the data were processed

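Total RNA was sequenced, and the authors deposited 1 table of raw gene counts with a column per library. Per the labels and the study's methods, reads were trimmed with Trimmomatic 0.39 and aligned with STAR 2.5.2b to GRCm38. The counting tool, the annotation release and the strand setting are not given in the sources used here, so antisense and overlapping genes cannot be told apart. Symbols and positions were taken from GENCODE M21 for 14064 of 14107 gene identifiers.

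Counts were scaled by TMM and fitted with limma-voom (limma 3.58.1, edgeR 4.0.16, R 4.3.3) as 1 model over all 34 libraries in 12 groups, with two-sided tests and Benjamini-Hochberg adjusted p below 0.01. The table was not filtered further. The alternatives are given in the closing section (DESeq2 1.42.0 among them). On simulated counts the fit recovered 85% of 200 genes changed 2-fold, with 1 false call among 13907 genes. There each gene varied alike in all groups and all other genes were unchanged between the days, unlike in the data. The simulated rate of false calls therefore does not carry over to the calls reported here.

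Genes named are the 12 highest and 12 lowest called genes that average at least 2 log2 CPM with no overlap between days, the 5 highest and lowest for the difference from DMSO, 4 each for NaJa-D and NaJa-F, members of the gene lists, and Braf, Trp53 and Apc. Predicted genes were left out, and 1 gene that the rule picks is not reported here. The comparison and the lists were chosen with earlier results of these data known.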

Additional observations from a re-analysis of the deposited data

Results flagged for a closer look

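The change between day 1 and day 5 differed between groups in 3 tests of the difference itself, all by limma at an adjusted p below 0.01. It differed between encorafenib and DMSO for 4473 genes, between NaJa-G and NaJa-D in encorafenib for 5284 genes, and between NaJa-G and NaJa-F for 1569 genes.

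In encorafenib minus DMSO, the log2 differences were 3.95 for Acta2, 3.38 for Lce1h, 2.96 for Loxl2, 2.95 for Dgkk and 2.76 for Ctla2a. On the other side they were -5.11 for Slurp1, -4.52 for Cxcr6, -4.43 for Tesc and -4.10 for Prss35.

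In NaJa-G minus NaJa-D they were 2.64 for Arhgef26, 2.43 for Clca3a1, 2.15 for Clca3b and 2.03 for Usp17lc, and -3.81 for Sprr2h, -2.65 for Tesc, -2.62 for Grhl3 and -2.58 for Sprr2a3. In NaJa-G minus NaJa-F they were 2.83 for Itih5, 2.52 for Clca3b, 2.33 for Galnt14 and 2.30 for Acta2, and -2.94 for Sprr2h, -2.54 for Prdm1, -2.30 for Tesc and -2.10 for Trbc1.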

How the results depend on the processing

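The number of genes called between day 1 and day 5 of encorafenib (5779) was 5661 to 6018 with edgeR, DESeq2, limma-trend or other scalings, 7259 when only the 6 libraries were fitted and 4703 to 5247 when 1 library was left out. At a log2 change of at least 1 it fell to 792, and the counts for DMSO, the difference from DMSO, NaJa-D and NaJa-F fell to 559, 1380, 1035 and 348. The count for DMSO (4804) was 1182 in a fit of its 5 libraries alone, 3060 without both libraries numbered 1 (an alternative chosen after seeing the data) and 3249 to 4430 without single libraries. The count for NaJa-F (1569) was 2625 at an adjusted p below 0.05. Leaving out 1 library at a time gave 3767 to 4593 genes for the difference from DMSO, 4519 to 6292 for NaJa-D and 1145 to 1525 for NaJa-F. The cause of these moves was not tested, beyond the looser or stricter threshold and the smaller number of libraries.

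With the replicate block the counts were 5721, 4695, 4399, 5243 and 1520 in the same order, and no count moved by over 1.5 times. Same-numbered libraries of day 1 and day 5 correlated in their deviations from the group means by 0.137, 0.200 and 0.006, so the numbers were not taken as pairs. Day 1 replicate 3 correlated best with day 5 replicate 1 (0.146).

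For named genes, 4674 of 4745 values kept their direction and their side of the threshold, 34 newly passed it, 26 no longer passed it and 11 turned their sign. All that turned were uncalled values near 0. Scaled by library size alone Ccnd1 was at 0.054, Cd274 at 0.047 and Myc at 0.061, and with GC correction Ccnd1 was at 0.0093, Myc at 0.060 and Npm1 at -0.079. Without single libraries Axin2 ranged from -0.019 to 0.064, Cd274 from -0.11 to 0.041 and Myc from -0.038 to 0.0055. Counting noise is small at these depths, and with 3 libraries a day the spread between libraries limits the precision, most of all for DMSO at day 5 with 2.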
